A study of Mus musculus with 8 samples.

Results

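The genes described here are 10 genes of the ISG15 system and of antiviral defence, among the 20308 gene symbols counted in CD11b+ cells of the mouse brain. They were taken by name: the modifier *Isg15*, its protease *Usp18*, its conjugation enzymes *Uba7*, *Ube2l6* and *Herc6*, and the effectors *Rsad2*, *Bst2*, *Mx2*, *Eif2ak2* and *Isg20*. All 10 were in the count table, and all 10 passed the filter on low counts together with 13407 genes in total. CSF1 OE mice carried a transgene that drives secreted CSF1 in a subset of GFAP+ cells through the TRE/tTA system, and control mice were labelled as the controls for that line. Both groups were F1 mice of C57Bl/6 and CD1 aged p14 or p15, and each had 4 mice with 1 library per mouse from the right hemisphere, after myelin removal and pull-down with CD11b beads. Which transgene parts the control mice carried and the sex of the mice are not given in the sources used here.

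ISG15 is a small protein with a pair of ubiquitin-like folds that interferons induce strongly. An enzyme cascade attaches it to other proteins: UBA7 activates it, UBE2L6 carries it, and in the mouse HERC6 is the main ligase, while USP18 removes it again. USP18 also binds the type I interferon receptor and damps its signal, and microglia are among the cells in which that brake is known to matter. The effectors act at different steps of a virus life cycle, from the translation block by PKR (the product of *Eif2ak2*) to the tethering of budding particles by tetherin (the product of *Bst2*).

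Interferon-induced genes are typically switched on through the interferon-stimulated response element (ISRE), to which proteins of the IRF family bind. Promoters were read from RefSeq for GRCm38.p6, from 250 bases before to 50 bases after a start site, and 8 of the 10 genes matched, with 10 promoters. The ISRE core GAAANNGAAA was searched on both strands. It was found in the promoters of 4 genes, *Isg15*, *Rsad2*, *Bst2* and *Eif2ak2*, and in 3.44% of all 32851 promoters of that length in the table. These 4 are shown because they carry the matches that set them apart from the conjugation enzymes, with the bases of the ISRE core in capitals. The sequences run 5′ to 3′ on the strand of the gene.

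Isg15 (chr4:156200769-156201068, - strand): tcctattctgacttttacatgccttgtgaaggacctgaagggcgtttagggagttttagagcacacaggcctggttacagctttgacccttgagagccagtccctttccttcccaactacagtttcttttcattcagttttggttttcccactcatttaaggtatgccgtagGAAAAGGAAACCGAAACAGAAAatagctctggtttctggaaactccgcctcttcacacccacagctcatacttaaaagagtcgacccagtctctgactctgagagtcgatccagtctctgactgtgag
Rsad2 (chr12:26456403-26456702, - strand): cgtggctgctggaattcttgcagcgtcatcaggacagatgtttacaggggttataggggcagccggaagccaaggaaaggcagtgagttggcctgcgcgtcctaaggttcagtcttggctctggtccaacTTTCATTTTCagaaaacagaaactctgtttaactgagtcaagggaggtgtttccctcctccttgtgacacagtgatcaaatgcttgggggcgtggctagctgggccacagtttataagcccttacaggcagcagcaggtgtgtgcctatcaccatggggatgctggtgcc
Bst2 (chr8:71537423-71537722, - strand): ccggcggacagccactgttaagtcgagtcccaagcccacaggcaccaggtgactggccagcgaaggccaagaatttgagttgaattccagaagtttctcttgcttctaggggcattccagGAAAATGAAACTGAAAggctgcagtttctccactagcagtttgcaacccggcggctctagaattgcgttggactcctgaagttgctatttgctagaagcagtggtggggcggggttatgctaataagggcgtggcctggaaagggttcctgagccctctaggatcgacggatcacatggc
Eif2ak2 (chr17:78882523-78882822, - strand): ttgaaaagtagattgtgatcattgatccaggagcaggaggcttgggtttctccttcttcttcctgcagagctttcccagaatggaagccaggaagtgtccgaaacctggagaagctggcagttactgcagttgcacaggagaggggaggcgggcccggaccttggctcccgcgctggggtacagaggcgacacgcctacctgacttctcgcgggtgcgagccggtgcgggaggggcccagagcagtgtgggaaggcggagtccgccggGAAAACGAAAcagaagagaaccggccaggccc

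*Isg15* held 3 overlapping matches between positions -78 and -57, counted from the start site at 1, and *Bst2* held 2 between -130 and -115. *Rsad2* had 1 match, on the opposite strand, from -120 to -111. The match of *Eif2ak2* lay downstream of the start site, from 19 to 28. The shorter IRF core AANNGAAA, which lies inside every ISRE core, was present in 6 of the 8 genes and in 23.9% of all promoters. *Uba7*, the activating enzyme, had only this shorter form, at -27 to -20 on the opposite strand, and it is shown for comparison with those bases in capitals.

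Uba7 (chr9:107975317-107975616, + strand): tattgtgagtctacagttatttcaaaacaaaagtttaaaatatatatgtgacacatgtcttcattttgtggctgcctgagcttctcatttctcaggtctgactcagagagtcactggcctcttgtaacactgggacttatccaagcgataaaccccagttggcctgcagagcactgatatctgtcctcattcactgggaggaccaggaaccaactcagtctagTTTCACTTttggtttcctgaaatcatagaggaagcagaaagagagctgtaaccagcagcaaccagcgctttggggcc

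The palindromic GAS core TTCNNNGAA, known from the response to interferon γ, was found in *Bst2* at -136 to -128, in *Eif2ak2* at -178 to -170 and in *Isg20* at -73 to -65, and in 8.30% of all promoters. In *Bst2* it shares bases with the first ISRE match. *Ube2l6* and *Herc6* had none of the 3 motifs in this window, and neither did 2 of the 3 promoters of *Isg20*. These matches describe letters, not bound sites.

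**Figure D1:**
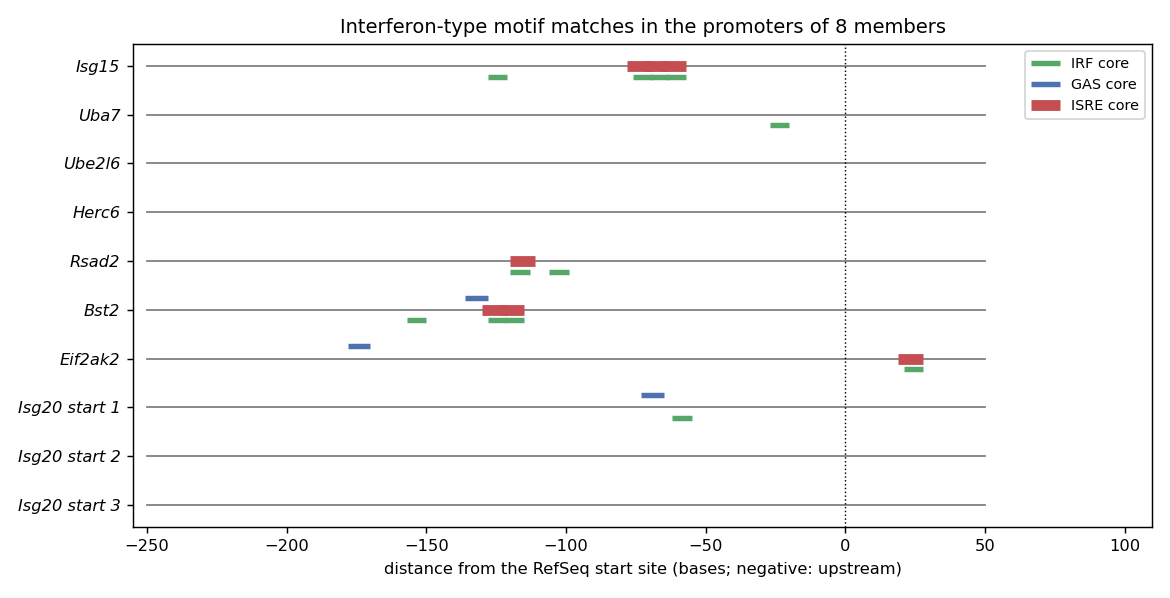
Motif matches in 10 RefSeq promoters of 8 genes, by distance from the start site in bases (horizontal axis), with 1 line per promoter. Thick red bars are ISRE cores, green bars IRF cores and blue bars GAS cores, and the ISRE cores are in *Isg15*, *Rsad2*, *Bst2* and *Eif2ak2*.

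The comparison of CSF1 OE with control mice addressed how CD11b+ cells respond to excess CSF1. The libraries held 12053259 to 15475465 counts each, and a gene without counts could have had up to 0.177 to 0.266 CPM (3 counts, counting error only). Values are CPM, that is counts relative to the TMM-normalized library, and fold changes are CSF1 OE over control on the log2 scale from the quasi-likelihood test of edgeR. A gene was called at a Benjamini-Hochberg adjusted p under 0.05 over all genes tested and a fold change under 0.7 or over 1.43. *Csf1* itself had 282 ± 98.7 CPM in the controls against 322 ± 107 CPM with CSF1 OE (SD, n = 4 each), with an adjusted p of 0.796 from edgeR. The transgene is driven in GFAP+ cells, so its level in CD11b+ cells does not test the labels. All 10 markers of microglia were detected, with summed levels from 21926 to 38294 CPM in the controls against 28192 to 39242.0 CPM with CSF1 OE.

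All 10 genes had a higher fitted level in CSF1 OE mice, 2 of them were called, and 8 had an unadjusted p under 0.05. Over all genes tested 0.388% were called higher, and 10.1% were higher with an unadjusted p under 0.05. Every CSF1 OE mouse lay above every control mouse in 5 of the 10 genes (*Isg15*, *Usp18*, *Herc6*, *Bst2* and *Eif2ak2*), against 6.84% of all genes. The median log2 fold change was 0.84 over the 10 genes and -0.034 over all genes tested. In bulk RNA, more cells with a transcript and more transcript per cell cannot be told apart.

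**Figure D2:**
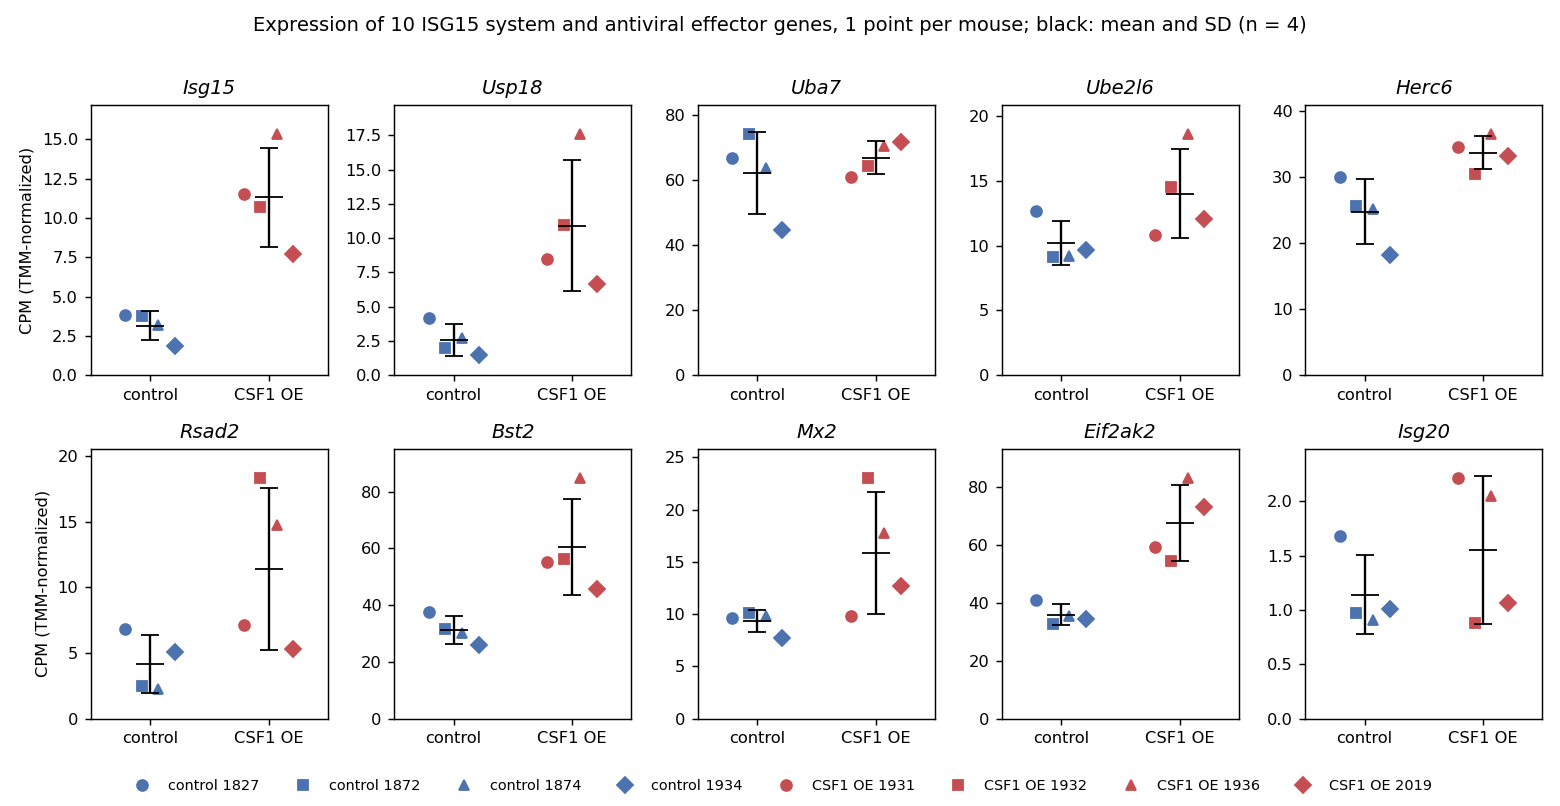
CPM of each gene (vertical axis, from 0) in control mice (blue) and CSF1 OE mice (red), with 1 point per mouse, the shape giving the animal number, and black lines for mean and SD (n = 4). The groups are apart in *Isg15*, *Usp18*, *Herc6*, *Bst2* and *Eif2ak2* and overlap in the other 5 genes.

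*Isg15* (chromosome 4, 156199424 to 156200818, minus strand, GRCm38) encodes the modifier itself. It had 3.83, 3.73, 3.18 and 1.83 CPM in control mice 1827, 1872, 1874 and 1934, and 11.5, 10.7, 15.3 and 7.70 CPM in CSF1 OE mice 1931, 1932, 1936 and 2019. Values below follow the same order of mice. The lowest CSF1 OE mouse was above the highest control mouse. *Isg15* rose from 3.14 ± 0.920 to 11.3 ± 3.14 CPM (SD, n = 4 each), a log2 fold change (log2FC) of 1.85 (standard error, SE, 0.29, 95% confidence interval 1.198 to 2.50, edgeR's adjusted p = 0.0431), or 3.61 times. It ranked 36 of 13407 by p. The call was close to the threshold: it was lost with upper-quartile factors (adjusted p = 0.0530 from edgeR) and whenever control mouse 1872, 1874 or 1934 or CSF1 OE mouse 1931, 1932 or 1936 was left out (adjusted p up to 0.182), while the log2 fold change stayed between 1.67 and 1.997.

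*Usp18* (chromosome 6, 121245906 to 121270917, plus strand) had 4.17, 2.01, 2.72 and 1.48 CPM in control mice and 8.46, 10.9, 17.6 and 6.64 CPM in CSF1 OE mice. The groups did not overlap, and CSF1 OE mouse 1936 was the highest of all 8. The fitted log2 fold change, 2.08 (SE 0.39, 95% confidence interval 1.18 to 2.97), was the largest of the 10 genes, but the adjusted p was 0.0558 from edgeR, so *Usp18* was not called. It was called with DESeq2 (adjusted p = 2.58e-05), with limma on the authors' normalized values (0.0480, where 0.656% of all genes were called higher), with a term for animal numbers (0.0369) and without control mouse 1827 (0.0428). The study itself, which used EBSeq, reported *Usp18* as upregulated with CSF1 OE.

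The modifier and its protease had similar counts. The ratio of *Isg15* to *Usp18* counts ran from 0.919 to 1.86 in control and from 0.872 to 1.36 in CSF1 OE mice, so the groups overlapped.

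The conjugation enzymes had smaller fold changes. *Uba7* (chromosome 9, 107975505 to 107984060, plus strand), the E1 enzyme, had 66.8, 74.1, 63.6 and 44.5 CPM in control mice and 61.0, 64.4, 70.5 and 71.7 CPM in CSF1 OE mice. Apart from control mouse 1934, the values of the groups were mixed. Its log2 fold change was 0.10 (SE 0.15, 95% confidence interval -0.23 to 0.43, edgeR's adjusted p = 0.746). The estimate turned to -0.016 without control mouse 1934 and was 0.31 in the model with animal numbers (edgeR's adjusted p = 0.122).

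*Ube2l6* (chromosome 2, 84798828 to 84810335, plus strand), the E2 enzyme, had 12.7, 9.13, 9.22 and 9.64 CPM in control mice and 10.8, 14.5, 18.6 and 12.04 CPM in CSF1 OE mice. The groups overlapped through control mouse 1827. The log2 fold change was 0.46 (SE 0.20, edgeR's adjusted p = 0.288).

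*Herc6* (chromosome 6, 57581000 to 57664632, plus strand), the ligase, had 30.0, 25.6, 25.2 and 18.2 CPM in control mice and 34.5, 30.5, 36.5 and 33.2 CPM in CSF1 OE mice. The groups were apart, if narrowly, with 30.0 CPM in control mouse 1827 and 30.5 CPM in CSF1 OE mouse 1932. Its fold change, 0.45 on the log2 scale (SE 0.15, edgeR's adjusted p = 0.195), did not reach the fold threshold, and *Herc6* was called by no alternative but the model with animal numbers (0.60, edgeR's adjusted p = 0.0425).

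The ratio of modifier to enzyme was higher in every CSF1 OE mouse than in every control mouse. The ratio of *Isg15* to *Uba7* counts was 0.0573, 0.0504, 0.0499 and 0.0412 in control and 0.188, 0.166, 0.218 and 0.107 in CSF1 OE mice. The ratios to *Ube2l6* (control 0.190 to 0.409, CSF1 OE 0.640 to 1.06) and to *Herc6* (control 0.101 to 0.146, CSF1 OE 0.232 to 0.421) did not overlap either. No p is given for these ratios, since the pairs were chosen with the values known. The ratios are also not independent of *Isg15*, whose own values were already apart between the groups.

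**Figure D3:**
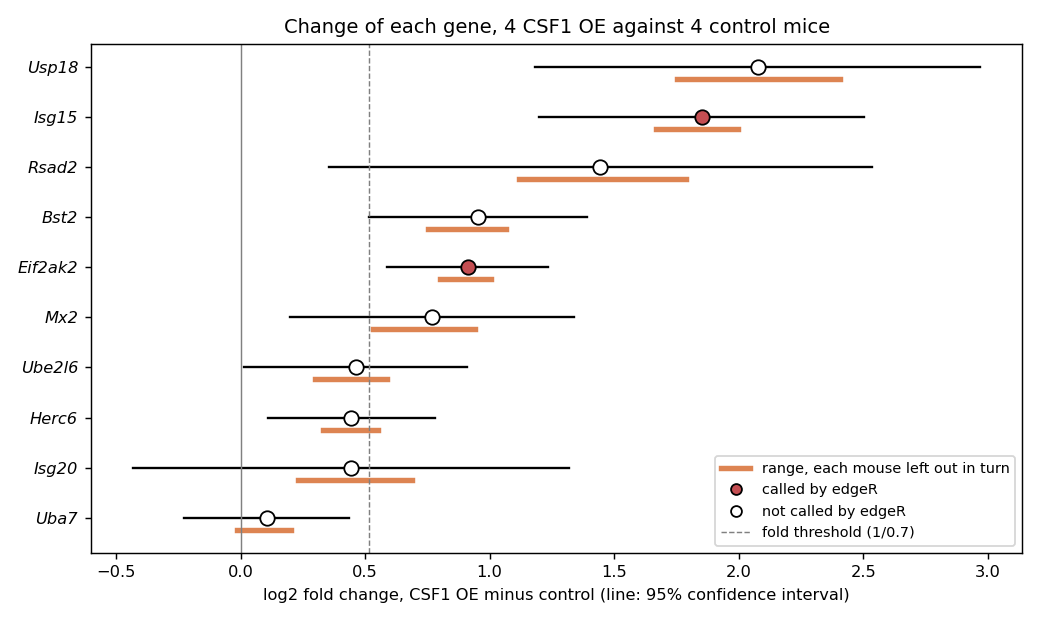
Log2 fold change of each gene (horizontal axis, CSF1 OE minus control) with its 95% confidence interval (black line) and the range of the estimate with each mouse left out in turn (orange bar). *Isg15* and *Eif2ak2* are filled as called, *Usp18* has the largest estimate, and the intervals of *Uba7* and *Isg20* include 0.

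Partners of the system outside the conjugation cascade were listed as *Trim25* and *Arih1* (further ligases), *Skp2* (which targets USP18 for degradation), *Ifnar2* and *Stat2* (through which USP18 reaches the receptor), *Itgal* (a subunit of the receptor for secreted ISG15), *Irf3* (a substrate) and *Rnf213* (a sensor of ISG15-modified proteins), of which 7 were tested. None was called. *Stat2* alone had an unadjusted p under 0.05, with 40.5 ± 3.02 CPM in the controls, 47.9 ± 3.73 CPM with CSF1 OE and a log2 fold change of 0.24 (adjusted p = 0.241 from edgeR). The largest positive log2 fold change was that of *Skp2*, 0.27 (adjusted p = 0.427), and the largest negative one that of *Irf3*, -0.32 (adjusted p = 0.387). The median of the 7 was 0.081.

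The parallel conjugation systems for ubiquitin, SUMO, NEDD8 and UFM1, with the autophagy E1 *Atg7*, gave 25 genes, all tested and none called. Of these, 8 were higher and 0 lower with an unadjusted p under 0.05, against 10.1% and 6.44% of all genes, and the median log2 fold change was 0.11. The ubiquitin E1 and E2 had higher CPM than *Uba7* and *Ube2l6*, without a correction for exon length. *Uba1*, the main ubiquitin E1, had 299 ± 20.7 and 348 ± 24.1 CPM (log2 fold change 0.22, edgeR's adjusted p = 0.257). *Ube2l3*, the closest relative of *Ube2l6*, had 127 ± 14.1 and 155 ± 10.7 CPM (0.28, adjusted p = 0.200). Among the other HERC genes the log2 fold changes were -0.086 for *Herc1*, 0.16 for *Herc2*, -0.24 for *Herc3* and -0.13 for *Herc4*. *Ufm1* had the largest positive value of the list, 0.33 (adjusted p = 0.160), and *Herc3* the largest negative one.

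**Figure D4:**
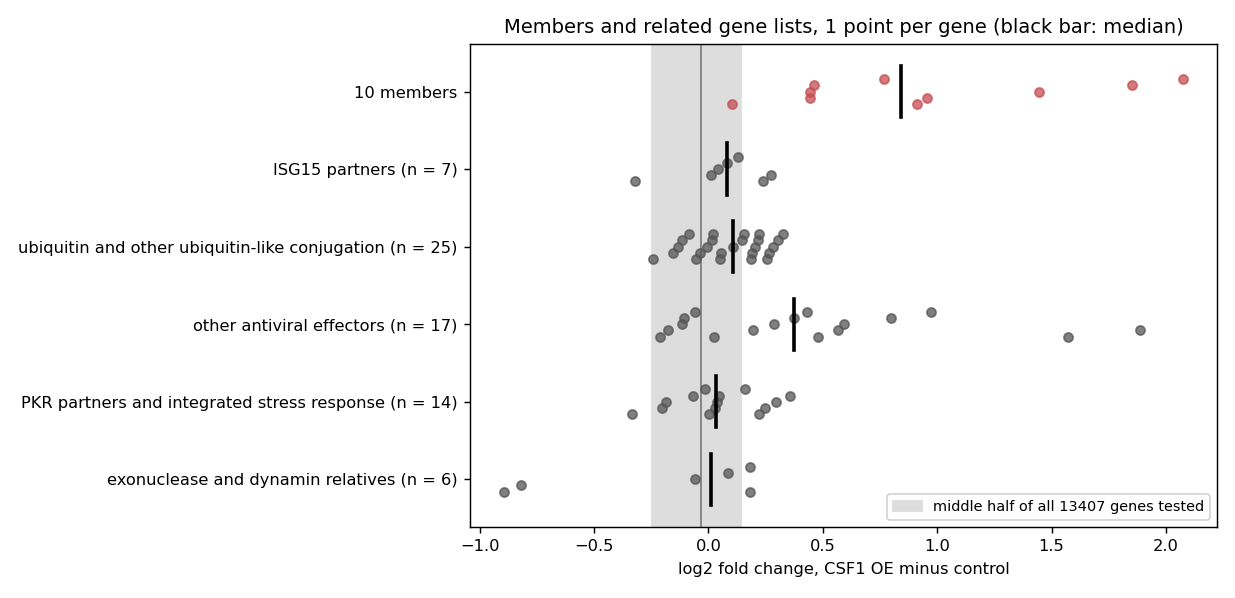
Log2 fold changes (horizontal axis, CSF1 OE minus control) of the 10 genes (red) and of the tested genes of 5 related lists (grey), with 1 point per gene and a black bar at each median. The grey band from -0.25 to 0.14 holds the middle 50% of all 13407 genes tested, and the medians lie at 0.84 for the 10 genes, 0.37 for other antiviral effectors and between 0.013 and 0.11 for the other 4 lists.

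Of the effectors, *Eif2ak2* and *Bst2* had values apart between the groups. *Eif2ak2* (chromosome 17, 78852564 to 78882573, minus strand) encodes PKR, a kinase that double-stranded RNA activates and that phosphorylates the translation factor eIF2α. It had 40.9, 32.8, 35.4 and 34.3 CPM in control mice and 59.4, 54.3, 83.2 and 73.0 CPM in CSF1 OE mice. The control mice lay close together and all CSF1 OE mice were above them. *Eif2ak2* rose from 35.8 ± 3.54 to 67.5 ± 13.1 CPM (SD, n = 4 each), a log2 fold change of 0.91 (SE 0.14, 95% confidence interval 0.59 to 1.24, edgeR's adjusted p = 0.0431), or 1.88 times, and ranked 38 by p. As for *Isg15*, the call was lost with upper-quartile factors (adjusted p = 0.0530), and whenever control mouse 1872, 1874 or 1934 or CSF1 OE mouse 1931, 1936 or 2019 was left out (adjusted p up to 0.182), with log2 fold changes between 0.80 and 1.01.

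The other eIF2α kinases, *Eif2ak1* (HRI), *Eif2ak3* (PERK) and *Eif2ak4* (GCN2), had log2 fold changes of 0.044, -0.068 and -0.014, with adjusted p from 0.711 to 0.938 by edgeR. In the list of 16 PKR partners and integrated stress response genes, 14 were tested and none was called. Its largest positive value was that of *Eif2s1*, the gene of eIF2α, with 63.4 ± 5.51 and 81.1 ± 7.54 CPM (log2 fold change 0.35, edgeR's adjusted p = 0.119), the only gene of the list with an unadjusted p under 0.05. The PKR activator *Prkra* and the inhibitors *Tarbp2* and *Dnajc3* had 0.038, 0.0021 and 0.028. Among the transcripts that follow eIF2α phosphorylation, *Atf4* had 0.22 (adjusted p = 0.449), *Ddit3* -0.20 (0.451), *Ppp1r15a* 0.16 (0.672) and *Asns*, the largest negative value, -0.33 (0.689).

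*Bst2* (chromosome 8, 71534255 to 71537456, minus strand) encodes tetherin. It had 37.7, 31.7, 30.0 and 26.0 CPM in control mice and 55.4, 56.4, 85.0 and 45.8 CPM in CSF1 OE mice. All CSF1 OE mice were above all control mice, with 1936 far above the rest. The log2 fold change was 0.95 (SE 0.19, 95% confidence interval 0.51 to 1.39, edgeR's adjusted p = 0.0611), so *Bst2* was not called. DESeq2 (adjusted p = 0.000415) and the term for animal numbers (0.0439) called it.

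*Rsad2* (chromosome 12, 26442746 to 26456452, minus strand) encodes viperin, an enzyme that makes a chain-terminating nucleotide. It had 6.85, 2.49, 2.27 and 5.09 CPM in control mice and 7.14, 18.4, 14.7 and 5.31 CPM in CSF1 OE mice. CSF1 OE mice 1931, 1932 and 1936 were above every control mouse, 1931 only narrowly, while 2019 lay below control mouse 1827. The log2 fold change was 1.44 with a standard error of 0.48 (adjusted p = 0.195 from edgeR), and of the alternatives only DESeq2 called it (adjusted p = 0.0485). With the term for animal numbers the estimate fell to 0.95 (SE 0.52, edgeR's adjusted p = 0.231). *Cmpk2*, its neighbour in the genome and a nucleotide kinase, had a log2 fold change of 0.97 (adjusted p = 0.221).

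*Mx2* (chromosome 16, 97535308 to 97560900, plus strand) belongs to the dynamin-like GTPases. GENCODE M21 lists it as a polymorphic pseudogene, as the reference strain carries an inactive form. It had 9.61, 10.1, 9.83 and 7.75 CPM in control mice and 9.86, 23.1, 17.8 and 12.7 CPM in CSF1 OE mice. CSF1 OE mouse 1931 lay within the control range and the other 3 above it. The log2 fold change was 0.77 (SE 0.25, edgeR's adjusted p = 0.191), and no alternative called it. The close relative *Mx1* was not analysed here.

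*Isg20* (chromosome 7, 78913424 to 78920396, plus strand), an exonuclease for single-stranded RNA, was the least abundant of the 10, with 12 to 30 counts per library. It had 1.68, 0.968, 0.907 and 1.01 CPM in control mice and 2.22, 0.882, 2.04 and 1.06 CPM in CSF1 OE mice. The lowest of all 8 values was in a CSF1 OE mouse. Its log2 fold change was 0.44 with a 95% confidence interval from -0.43 to 1.32 (adjusted p = 0.595 from edgeR), which includes both no difference and a higher level past the fold threshold. Of 6 exonuclease and dynamin relatives outside the interferon response none was called. One, *Dnm3*, was lower with an unadjusted p under 0.05. The largest positive value was that of *Aen*, 0.18 (adjusted p = 0.522), and the largest negative one that of *Dnm1*, -0.89 (adjusted p = 0.407).

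Other antiviral effectors were listed as 18 genes, of which 17 were tested. None was called by edgeR, 9 were higher and 0 lower with an unadjusted p under 0.05, and in 6 every CSF1 OE mouse was above every control mouse (6.84% of all genes) and in 0 below (3.45% of all genes). *Rtp4*, a transmembrane inhibitor of flaviviruses, had the largest value, with 4.87 ± 1.88 and 18.0 ± 8.30 CPM and a log2 fold change of 1.89 (SE 0.36, edgeR's adjusted p = 0.0558). The median of the list was 0.37. DESeq2 called 5 of the 10 genes (*Bst2*, *Eif2ak2*, *Isg15*, *Rsad2* and *Usp18*) and 4 of these 17, against 2.01% of the genes tested by edgeR that it called higher. When animal numbers entered the model, the counts were 5 (*Bst2*, *Eif2ak2*, *Herc6*, *Isg15* and *Usp18*) and 6, against 2.26% of all genes called higher.

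Levels between genes were compared as CPM per kilobase of exon. In control mice *Bst2* was the highest at 39.6 ± 6.15, followed by *Uba7* (19.5 ± 3.95), *Eif2ak2* (8.31 ± 0.822), *Ube2l6* (6.52 ± 1.09), *Herc6* (5.19 ± 1.03), *Isg15* (4.16 ± 1.22), *Mx2* (3.85 ± 0.441), *Usp18* (1.46 ± 0.658), *Rsad2* (1.10 ± 0.581) and *Isg20* (0.724 ± 0.230). Neighbours in this order whose mean ± SD overlapped were *Eif2ak2* and *Ube2l6*, *Ube2l6* and *Herc6*, *Herc6* and *Isg15*, *Isg15* and *Mx2*, *Usp18* and *Rsad2*, and *Rsad2* and *Isg20*. In CSF1 OE mice the first 3 places were the same, with 76.6 ± 21.4, 20.9 ± 1.58 and 15.6 ± 3.04, and *Isg15* followed at 14.97 ± 4.16, which did not differ from *Eif2ak2* beyond the spread. On this scale the mean of *Isg15* lay below that of *Ube2l6* in control mice and above it in CSF1 OE mice, where *Ube2l6* had 8.98 ± 2.201 and *Herc6* 7.06 ± 0.525. The mean ± SD of *Isg15* and *Ube2l6* overlapped in CSF1 OE mice.

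The size of the difference varied among the mice of a group. CSF1 OE mouse 1936 was the highest of its group in 6 of the 10 genes and the lowest in 0, against 24.1% and 22.0% of all genes tested. *Rsad2* and *Mx2* instead peaked in mouse 1932, and *Isg20* in mouse 1931. Among the control mice, 1827 was the highest in 8 of 10 genes (28.7% of all genes) and 1934 the lowest in 6 (37.6% of all genes). Mouse 1934 also had the lowest summed microglial markers of the 4 control mice (21926 CPM, against 33363 to 38294 CPM in the other 3) and their highest sums for endothelial cells (1535 CPM), the oligodendrocyte lineage (5509 CPM) and neurons (347 CPM). The part of this in its values was not tested. CSF1 OE mouse 2019 was the lowest of its group in 4 of the 10 genes (*Isg15*, *Usp18*, *Rsad2* and *Bst2*). This is close to its share over all genes tested, 36.0%.

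**Figure D5:**
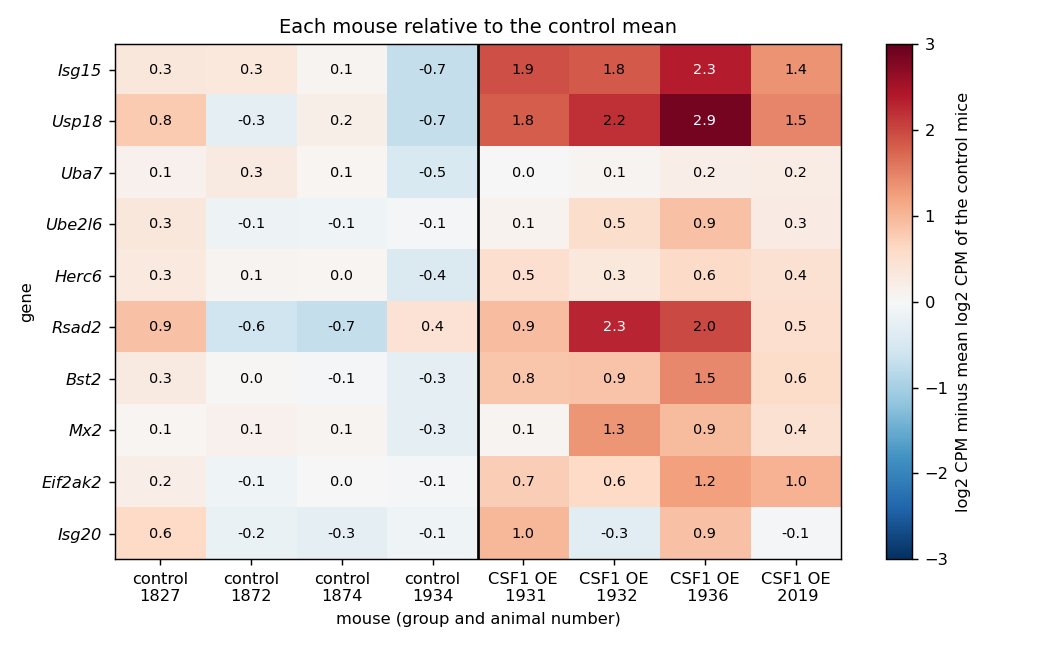
Log2 CPM of each gene (rows) in each mouse (columns) minus the mean log2 CPM of the 4 control mice, with red above and blue below that mean and the value printed in each cell. *Isg15* and *Usp18* are between 1.35 and 2.87 in all CSF1 OE mice, while *Rsad2* and *Mx2* are strongest in mouse 1932.

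Animal numbers from 1931 to 1936 covered 1 control and 3 CSF1 OE mice, and the other numbers 3 control and 1 CSF1 OE mouse. The labels do not call these ranges batches. Within the first range all 10 genes were higher in CSF1 OE on average, and within the other numbers 9 were, the exception being *Isg20* (-0.094 in log2 CPM). For *Isg15* the within-range differences were 2.66 and 1.08, and for *Usp18* they were 2.88 and 1.18. For *Eif2ak2* they were 0.91 and 1.01. Each range has 1 mouse on one side, control mouse 1934 in the first and CSF1 OE mouse 2019 in the other. Differences in the first range therefore rest on mouse 1934, the lowest control mouse in 6 of the 10 genes. For *Uba7* that range gave 0.55, while its log2 fold change was -0.016 without mouse 1934. These values are given without a test and without the share of all genes.

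The genes whose pattern over the 8 libraries was most like the average of the 10 were sought among all genes tested, by the root mean square difference of z scores of log2 CPM. The 5 closest were *Oas1a* (0.180), *Oasl2* (0.211), *Ndufc2* (0.223), *Ifi44* (0.226) and *Lgals3bp* (0.227). Apart from *Ndufc2*, a subunit of respiratory complex I with a log2 fold change of 0.18, they are known interferon-induced genes, with log2 fold changes from 1.62 for *Lgals3bp* to 2.63 for *Ifi44*, and none of the 5 was called. This likeness is a description over the same libraries.

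Transcripts of interferons themselves were scarce. Of 11 interferon genes, 8 had no count in any library and none passed the filter. *Ifnb1*, the gene of interferon β, had 5, 0, 1 and 2 counts in control mice and 4, 8, 7 and 1 counts in CSF1 OE mice, so the groups overlapped. *Ifng* and *Ifna2* each had 1 count in total, in a CSF1 OE mouse.

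Promoters with the ISRE core were also set beside the fold changes. The 4 genes with the core had log2 fold changes from 0.91 to 1.85, and the 4 with a promoter in the table and no core from 0.10 to 0.46. *Usp18* (2.08) and *Mx2* (0.77) had no promoter in the table and are in neither set. Over all tested genes with a promoter, those with the core (383 genes) had a median of 0.021. Those without it (9722 genes) had a median of -0.029. Called higher were 5 genes with the core (1.31%) and 32 genes without it (0.329%). The 383 genes include the 4 with the core named above, and the 5 called include *Isg15* and *Eif2ak2*. The share of 1.31% is therefore not independent of those 4 genes. These comparisons are descriptions of genes that were chosen with results known, and no match in this window says nothing about a factor.

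Markers of other cells were measured beside these differences. All 10 endothelial markers had a negative log2 fold change, with summed levels from 876 to 1535 CPM in the controls against 413 to 1037 CPM with CSF1 OE, as had all 8 markers of border macrophages (1561 to 2485 and 1254 to 1880.0 CPM) and all 5 of red blood cells (251 to 936 and 38.5 to 434 CPM). For monocytes and neutrophils the sums were 55.1 to 119 and 36.1 to 228 CPM, with 6 of 9 tested markers higher and 3 lower. The 228 CPM was in mouse 2019, against 36.1, 83.3 and 66.0 CPM in mice 1931, 1932 and 1936. Among CSF1 OE mice, only 2019 exceeded the control mean of *S100a8*, *S100a9*, *Camp*, *Ngp* and *Mmp8*. *Plac8*, also among the 6, was higher in every CSF1 OE mouse than in every control mouse (log2 fold change 1.70, edgeR's adjusted p = 0.0948). For T, NK and B cells the sums were 7.93 to 20.1 and 12.2 to 17.2 CPM, almost all from *Cd79b*, with *Ncr1* at 0 in every library. Plasmacytoid dendritic cells, a main source of type I interferon in which *Bst2* is also abundant, gave 310 to 476 and 357 to 465 CPM, most of it from *Lair1*, which other myeloid cells also express, with *Klk1* at 0 in every library. Mural cells, astrocytes, the oligodendrocyte lineage and neurons had overlapping sums as well. With an unadjusted p under 0.05 by edgeR, 5 of the 8 border macrophage markers were lower and 0 higher. Of the 10 endothelial markers 4 were lower and 0 higher, where 6.44% of all genes were lower. Among the 10 microglial markers 1 was higher and 1 lower, and among the 8 astrocyte markers 1 was higher and 0 lower. No marker in these lists was called, the groups overlapped in every sum, and the part of these cells in the results was not tested.

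No gene that overlaps any of the 10 in GENCODE M21 (*Gm44148* with *Usp18*, *Gm20661* with *Uba7*, *Gm45193* and *Gm19244* with *Herc6*, *Gm26637* and an rRNA gene with *Eif2ak2*) had a row of its own in the count table. The library kit does not keep strand, so reads from such transcripts cannot be told apart from those of the gene. Shared exon bases were 124 for *Usp18*, 77 for *Uba7*, 1269 for *Herc6* and 174 for *Eif2ak2*.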

How the data were processed

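Paired-end RNA-seq covered 8 mice, 4 control and 4 CSF1 OE. The authors mapped reads with Bowtie 1.0.0 and made the deposited expected counts per gene symbol with RSEM 1.2.7, and the submitters' processing notes name mm10. RSEM divides reads shared by several genes, and the annotation and strand setting are not given in the sources used here. A second deposited table holds a signal, the expected counts that the authors divided by 1 size factor per mouse, and 0 of its columns were left unmapped.

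Rounded expected counts entered edgeR 4.0.16 under R 4.3.3 (TMM, filterByExpr, glmQLFit, glmQLFTest) over all genes, 4 mice against 4. Standard errors are the log2 fold change divided by the square root of F. The study's EBSeq was not run here. On data simulated for this comparison (13407 genes, of which 200 differed 2-fold) the share recovered was 60.0% and 5.51% of calls were false. Alternatives were DESeq2 1.42.0, upper-quartile factors, other filters, a robust prior, limma 3.58.1 on log2 of the normalized values plus 1, a term for animal numbers 1931 to 1936, other fold thresholds, and each mouse left out.

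Positions, exon lengths (union over basic transcripts) and overlaps came from GENCODE M21 on GRCm38, the build of mm10, and promoters from RefSeq. One listed gene, *Shfl*, was matched by an older symbol. The genes, the lists and the tests were chosen with earlier results of these data known. Named in the text are all 10 genes, from each further list the largest positive and negative change (1 of these is not reported here), and the 5 genes of most similar pattern. Genes named beyond this for their role were chosen after their values were seen.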

Additional observations from a re-analysis of the deposited data

Results flagged for a closer look

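In 2 of the 20 groups of 4 mice (10 genes in 2 genotypes), 1 mouse stood apart by Dixon's criterion for an outlier. Both times it was control mouse 1827, which had the highest value. For *Ube2l6* this mouse had 12.7 CPM, where the gap to the nearest control mouse was 0.857 of the range of the group. For *Isg20* it had 1.68 CPM, with a gap of 0.873 of the range. About 1 in 20 groups is expected to pass this criterion by chance.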

How the results depend on the processing

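Of the 10 genes, edgeR called 2. The number was 5 with DESeq2 and with the term for animal numbers, 0 with upper-quartile factors and with glmTreat at the fold threshold, and from 0 to 3 with each mouse left out in turn (3 without control mouse 1827, 1 without CSF1 OE mouse 1932 or 2019, and 0 without any of the other 5). Over all genes 59 were called, against 430 with DESeq2, 19 with upper-quartile factors, 105 with limma, 1274 with the term for animal numbers, 3 with glmTreat, and from 3 to 164 with a mouse left out. Of the other antiviral effectors 0 were called, against 4, 2 and 6 with DESeq2, limma and the term for animal numbers, and from 0 to 3 with a mouse left out (3 without control mouse 1827). The term for animal numbers also called 2 of the 6 exonuclease and dynamin relatives, counted in either direction. Of its 1274 calls over all genes, 303 were higher. DESeq2 called 0 of these relatives and 0 in the lists of partners, ubiquitin-like systems and stress response. Over the 15 alternatives that refit the data, 9 of the 10 genes had a positive log2 fold change each time. The exception was *Uba7*, whose log2 fold change ran from -0.016 (without control mouse 1934) to 0.20 with a mouse left out and was 0.31 with the term for animal numbers. The cause of these shifts was not tested. Counts as low as 12 per library limit what can be said of *Isg20*. No paired analysis was made, because the labels name no pairs or litters.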
